A study of Mus musculus with 8 samples.

Results

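The 10 genes followed here belong to the MHC class I pathway and were read in single-cell expression libraries of mouse deep cervical lymph nodes: B2m, H2-K1, H2-D1, Tap1, Tap2, Tapbp, Psmb8, Psmb9, Psmb10 and Nlrc5. They were taken by name, all 10 were found in the deposited tables, and those tables list 32285 genes. The 5 expression libraries, 1 per group, came from C57BL/6 mice on day 20 after an injection into the brain. Live immune cells were sorted by FACS from the nodes that drain the head, and 10x Genomics 5' V2 libraries were prepared from them. The saline group received DPBS. The remaining 4 groups received GL261, a mouse glioma line, and were treated in a design of 2 by 2: with isotype IgG (isotype) or with an antibody that blocks the T cell checkpoint receptor CTLA-4 (anti-CTLA-4), and each of these either alone or together with anti-CD20, an antibody that removes B cells (depleted isotype, depleted anti-CTLA-4). B cell receptor libraries were used for the 3 groups without anti-CD20. How many mice were pooled per library, and whether mice of the saline group were given isotype IgG, the sources used here do not state. With 1 library per group, no difference between groups has a replicate check and no p-value was computed. Intervals below are 95% intervals that cover counting error only.

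MHC class I molecules show peptides from inside the cell to CD8 T cells. The proteasome cuts proteins into these peptides, and the subunits Psmb8, Psmb9 and Psmb10 replace the constitutive subunits Psmb5, Psmb6 and Psmb7 in the form of the proteasome called the immunoproteasome. Tap1 and Tap2 form the transporter that carries peptides into the endoplasmic reticulum, tapasin (Tapbp) holds the class I molecule at that transporter, and the class I molecule itself is a heavy chain (H2-K1 or H2-D1 in these mice) bound to beta-2 microglobulin (B2m). Nlrc5 is a transcriptional coactivator that acts at class I promoters, as Ciita does at class II promoters. In a lymph node all nucleated cells carry class I molecules, and dendritic cells use the pathway to prime CD8 T cells.

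Of the members, 7 lie on chromosome 17 and the rest on chromosomes 2 and 8 (RefSeq, GRCm38.p6, the assembly of build mm10). Tapbp spans 17:33919478-33929290, H2-K1 17:33996012-34000619, Psmb9 17:34182030-34187330, Tap1 17:34187556-34197225, Psmb8 17:34198195-34201454, Tap2 17:34204479-34216321 and H2-D1 17:35263094-35267497. B2m spans 2:122147687-122153082, Nlrc5 8:94434335-94527272 and Psmb10 8:105935728-105938392. Psmb9, Tap1, Psmb8 and Tap2 are neighbours, and Psmb9 and Tap1 point away from each other from starts that are 225 bases apart.

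The promoters are shown because B2m, H2-K1, H2-D1 and Tapbp were lower, and Psmb8 and Psmb9 higher, in germinal centre than in follicular B-like cells. RefSeq windows, from 250 bases before to 50 after the start, were at hand for 8 of the 10 members, and Tap2 and Nlrc5 are named only. The H2-K1 window, 17:34000298-34000597, lies within the span given above for this gene, which reaches 34000619. It was therefore set from a start further inside the gene. Both strands were searched for TGACG (a CRE-type site), ATTGG (a Y box), AANNGAAA (an IRF core) and an NF-kB type site. In B2m, H2-K1 and H2-D1 the CRE-type site and the Y box stood on 1 strand with 20 letters between them, shown here in capitals at 2:122147609-122147638 (plus strand), 17:34000359-34000388 (minus strand) and 17:35262993-35263022 (plus strand):
B2m: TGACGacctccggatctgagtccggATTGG
H2-K1: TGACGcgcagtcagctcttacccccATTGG
H2-D1: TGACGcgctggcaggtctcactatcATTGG
Such a pair, with 15 to 30 letters between, a range chosen after these sequences were read, was in 189 of 32841 windows (0.576%). The windows of Tap1, Psmb9, Tapbp, Psmb8 and Psmb10 did not hold it.

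Longer stretches before the start show the other matches, again in capitals. In B2m (chr2:122147537-122147686, plus strand) an IRF core and an NF-kB type site come before the pair, and in H2-D1 (chr17:35262904-35263053, plus strand) the order of these is NF-kB type, then IRF core, with a second Y box on the other strand at the end. The whole interval between Psmb9 and Tap1 (chr17:34187331-34187555, plus strand, which is the strand of Tap1) holds 1 Y box on the other strand and 1 CRE-type site.
B2m: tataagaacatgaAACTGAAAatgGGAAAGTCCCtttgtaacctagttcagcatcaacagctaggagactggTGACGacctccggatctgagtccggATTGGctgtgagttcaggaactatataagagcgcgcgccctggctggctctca
H2-D1: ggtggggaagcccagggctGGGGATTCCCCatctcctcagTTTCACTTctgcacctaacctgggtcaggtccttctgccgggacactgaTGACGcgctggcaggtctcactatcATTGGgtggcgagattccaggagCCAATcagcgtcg
Tap1 and Psmb9: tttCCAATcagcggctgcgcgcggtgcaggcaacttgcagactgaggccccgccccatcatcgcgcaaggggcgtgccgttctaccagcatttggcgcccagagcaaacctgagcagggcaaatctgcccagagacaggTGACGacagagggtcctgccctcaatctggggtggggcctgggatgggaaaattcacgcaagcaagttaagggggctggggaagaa
Alone these motifs are common: of all windows, 20.8% hold the CRE-type site, 37.4% the Y box, 23.9% the IRF core and 8.46% the NF-kB type site. A match describes letters and is no measured site.

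The libraries kept 8302 to 10598 cells each, 45135 in all, with median UMIs per cell (unique molecules counted) from 4261.5 to 6026. Cells were clustered without the members and named from marker genes, and a class was compared where a library held at least 50 of its cells. B lineage cells numbered 4451, 4594 and 5163 in the libraries without anti-CD20, and 59 and 92 in the depleted ones, so states of B cells were read mainly from the first 3 libraries. The median share of mitochondrial UMIs, a sign of RNA quality, was 1% in the isotype library and 1.77% to 2.09% in the other 4, so by this measure the isotype library stands apart in the comparisons that use it. Between 87 and 142 cell barcodes were shared by any pair of libraries. The B cell gene Cd79a, at 3402 to 3724 CPM (UMIs of the gene per 1000000 UMIs of the cells) in B lineage cells of the undepleted libraries, was at 9.65 to 12.57 in their T cells and at 0.907 to 1.30 in T cells of the depleted libraries. Cd3e, a T cell gene, was at 2.35 to 7.10 in B lineage cells. These values give the scale of RNA from other cells, and since every cell type here expresses the class I members, no cell type without them was at hand to measure that share for them directly. B cell cluster 11 holds 331 cells and was named germinal centre B-like, with 3 germinal centre markers, Basp1 and Mef2b among them, and 4 markers of cycling cells among its 10 leading genes. It therefore mixes a cell type with a cell cycle state, and at Leiden resolution 2 it split into a cluster led by germinal centre genes and one led by cycling genes, whose values are given below. The migratory DC-like class has 273 cells in 2 clusters, 213 in one led by Cxcl13 and Clu and 60 in one led by Ccl22 and Ccl17. In the first, the migratory DC markers Fscn1, Ccr7 and Cacnb3 were at 3927, 2421 and 906 CPM, against 0.229, 509 and 2.36 in naive CD4 T-like cells, and the stromal or endothelial markers Col1a1, Pdpn, Pecam1 and Cdh5 were at 0 to 2.98 CPM. Of the clusters, 2 came almost entirely from the isotype library, 267 of 274 follicular B-like cells in one and 298 of 303 naive CD8 T-like cells in the other, and the medians over the members given below were alike without them.

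Levels by cell class, given as CPM over all UMIs of that class and as mean ± SD over libraries, had 1 feature in common: all 10 members were highest in migratory DC-like cells (n = 3 libraries). Below that class the members parted. The class I molecule genes and Tapbp were lowest of 15 classes in germinal centre B-like cells, while Psmb8 and Psmb9 were there among the 4 highest.

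Psmb8, the immunoproteasome counterpart of Psmb5, reached 1408 ± 225 (SD, n = 3) in migratory DC-like cells. Next came interferon-high T cells at 668 ± 62.0 (n = 5), cycling T cells at 652 ± 44.3 (n = 4) and germinal centre B-like cells at 651 ± 78.1 (n = 2), whose ranges overlapped. Follicular B-like cells, at 357 ± 8.77 (n = 3), and naive CD4 T-like cells, at 363 ± 7.64 (n = 5), were near the bottom, above activated B-like cells at 339.9 ± 13.7 (n = 3). Psmb9 was at 725 ± 149 in migratory DC-like, 333 ± 77.9 in germinal centre B-like and 131 ± 3.62 in follicular B-like cells, and lowest at 109 ± 11.5 (n = 3) in a B cell cluster that stayed unnamed and is led by Srm and Mif. Psmb10 was at 431 ± 71.0 in migratory DC-like and 257 ± 20.0 in interferon-high T cells. These 2 levels stood apart from the rest, and from NK-like cells at 190.1 ± 14.2 (n = 4) down to the unnamed B cells at 106 ± 13.1 only 1 neighbouring pair of ranges did not overlap.

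Tap1 was at 296 ± 26.6 in migratory DC-like, 266 ± 19.9 in interferon-high B (n = 3) and 239 ± 36.0 in interferon-high T cells, and the other 12 classes lay below these with ranges that overlapped from 1 class to the next. Effector CD8 T-like cells were lowest at 92.5 ± 5.93 (n = 5). Tap2, the other chain of the transporter, was at 236 ± 20.2 in migratory DC-like and 204 ± 8.63 in interferon-high T cells, and lowest in memory-like or innate-like B cells (90.04 ± 6.62, n = 3) and the unnamed B cells (87.5 ± 9.82). Tapbp was at 419 ± 20.4, 314 ± 29.4 and 277 ± 20.8 in migratory DC-like, interferon-high T and interferon-high B cells. Its level in germinal centre B-like cells, 89.6 ± 28.7, lay below the range of naive CD4 T-like cells (129.8 ± 3.20), the next class up.

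B2m was at 6030.3 ± 438 in migratory DC-like and 2523 ± 272 in interferon-high T cells. T and NK-like classes other than interferon-high and cycling T lay between 1941 ± 80.7 and 2229 ± 94.9, follicular B-like cells at 1311 ± 79.1, and germinal centre B-like cells at 779 ± 171, below the range of every other class. H2-K1 was at 4626 ± 157 in migratory DC-like, 3781 ± 283 in NK-like and 3181 ± 169 in Treg-like cells, at 1747 ± 30.9 in follicular B-like and at 808 ± 217 in germinal centre B-like cells. H2-D1 followed the same top order, with 4329.5 ± 327, 3446 ± 297 and 2399.7 ± 93.7. It was at 1998 ± 11.1 in follicular and 926 ± 193 in germinal centre B-like cells. H2-K1 and H2-D1 are closely related genes, and the sources used here do not state how reads that fit both, or the H2-Q genes, were counted, so the split between them is uncertain.

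Nlrc5 had the lowest UMI counts of the 10 genes. It was at 203 ± 15.7 in migratory DC-like, 147 ± 12.2 in interferon-high T and 123 ± 4.41 in Tfh- and effector-like CD4 T cells, and these 3 ranges did not overlap. In B cells it was at 76.5 ± 14.6 in interferon-high, 46.9 ± 4.80 in memory-like or innate-like, 27.4 ± 5.77 in follicular and 21.3 ± 7.58 in activated B-like cells. Summed over lineages, B lineage cells held 0.345 times the Nlrc5, 0.649 times the H2-K1 and 0.652 times the B2m of T cells, and these 3 genes were lower in 5 of 5 libraries by a mean ratio past 1.5 (20.1% of 11015 genes were lower by this rule). In the depleted libraries the B lineage was 59 and 92 cells, of which 22 and 40 were germinal centre B-like and 4 and 9 plasma cell-like. Between follicular B-like and naive CD4 T-like cells B2m and Nlrc5 passed as lower, and H2-K1 (1747 against 2403 CPM) did not. The part of cell composition in the lineage ratios was not tested. All 8 class II genes listed were higher in B lineage cells, with a median log2 ratio of 8.25.

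**Figure D1:**
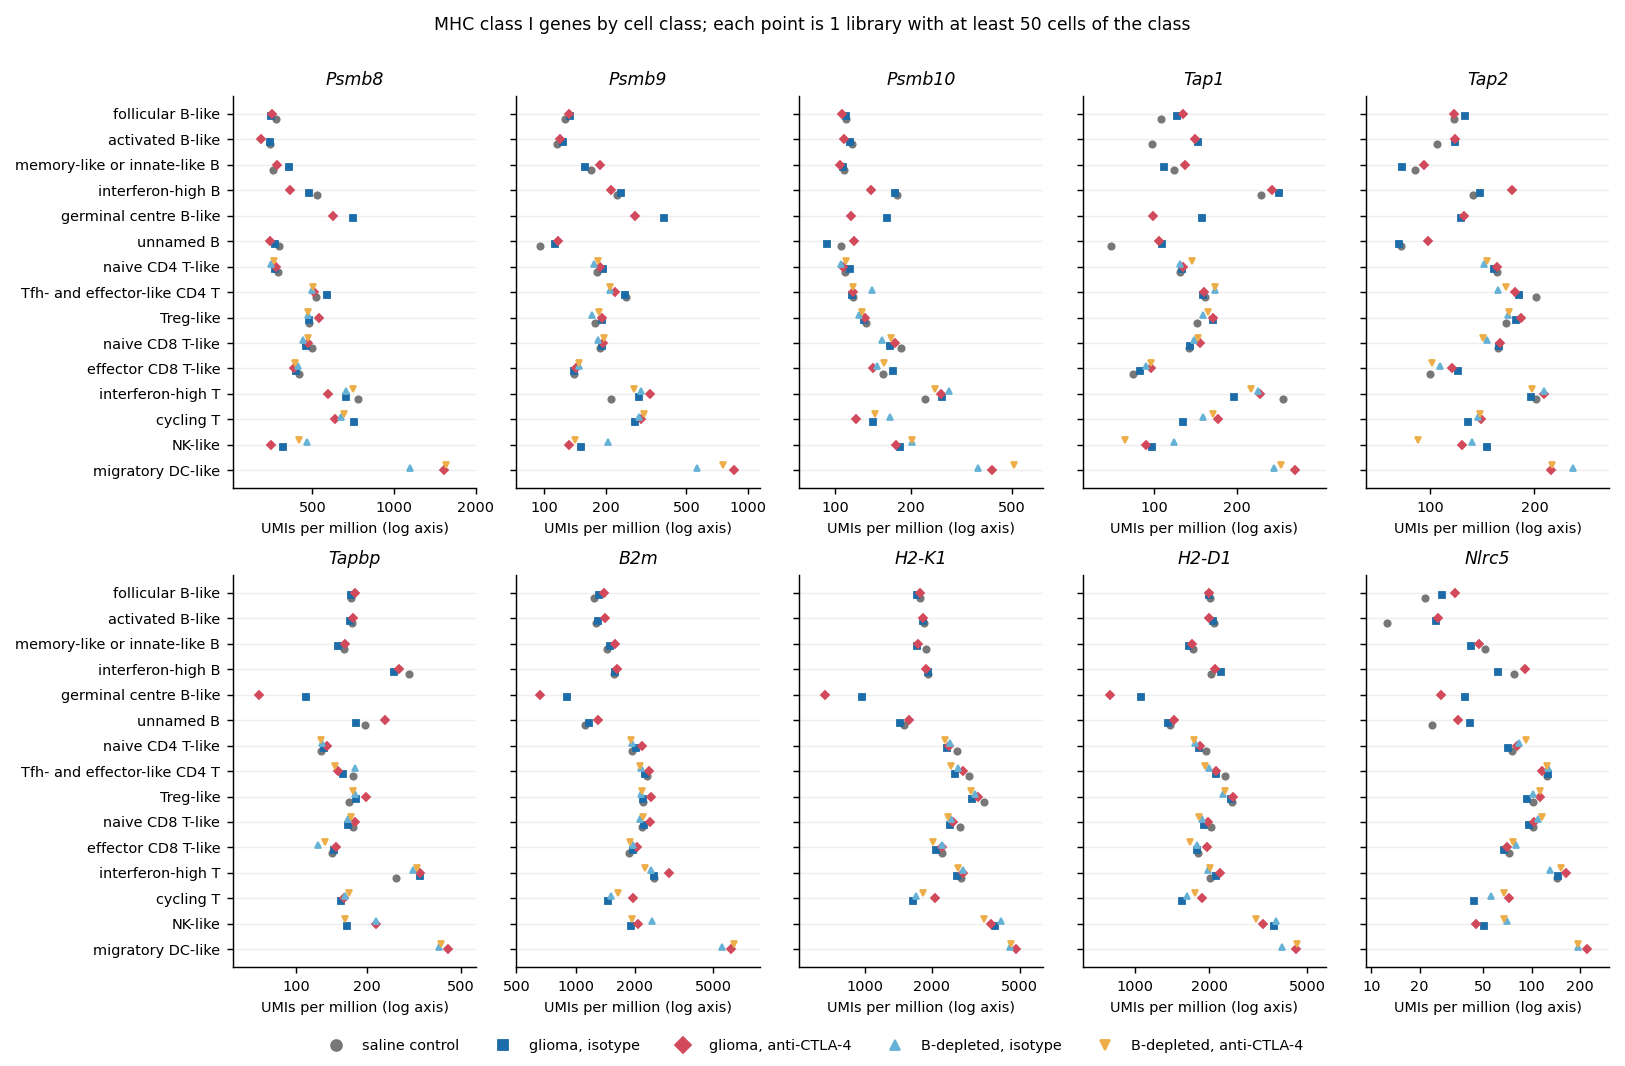
Level of each of the 10 genes (x axis, CPM, log axis) in 15 cell classes (y axis). Each point is 1 library with at least 50 cells of the class, with colour and shape for the library; migratory DC-like cells have the highest mean of every gene, and germinal centre B-like cells the lowest mean of Tapbp, B2m, H2-K1 and H2-D1.

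Germinal centre B-like cells, the dividing cells in which B cells mutate and select their receptors, had less B2m, H2-K1, H2-D1 and Tapbp, and more Psmb8 and Psmb9, 2 of the 3 immunoproteasome subunits, than follicular B-like cells, the resting B cells of the node. H2-K1 was at 1712 CPM in follicular and 962 in germinal centre B-like cells of the isotype library, and at 1760.0 and 654 in the anti-CTLA-4 library. B2m was at 1309 and 899.5 in the isotype library and at 1391 and 658 in the anti-CTLA-4 library. Neither gene's follicular and germinal centre levels overlapped. Psmb9 went the other way, from 134 to 388 and from 132 to 278.

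Expressed as the mean ratio over the 2 libraries, H2-K1 was at 0.457 of follicular B-like cells, H2-D1 at 0.460, Tapbp at 0.504 and B2m at 0.570. Psmb9 was at 2.47 and Psmb8 at 1.85 times the follicular level. A gene counted as higher or lower between classes when its mean ratio passed 1.5 with 1 direction in every library, which made 2 members higher and 4 lower; of 8785 genes, 24% were higher and 22.7% lower, so the counts alone lie near the background. Under median-ratio size factors, which shifted all genes by -0.14, the same 6 passed, and Tap2 and Nlrc5 had mean ratios below 1. The other 4 members did not pass: Psmb10 had a mean ratio of 1.26, Nlrc5 1.08, Tap2 1.02 and Tap1 0.977, and Tap1, Tap2 and Nlrc5 were above the follicular level in 1 library and below it in the other. The median log2 ratio of the 10 members was -0.002 beside 0.01 over all genes. The saline library has 26 of these cells and was left out of the ratios, and its levels, 654 for H2-K1, 641 for B2m, 712 for Psmb8 and 322 for Psmb9, lay on the same side of its follicular levels of 1769, 1233, 367 and 127.

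The lists set beside the members divided in the same way. All 3 constitutive subunits (Psmb5, Psmb6, Psmb7) were higher in germinal centre B-like cells, with a median log2 ratio of 1.09, so that the UMIs of Psmb8 per UMI of Psmb5 were 2.91 ± 0.295 (SD, n = 2) there and 3.25 ± 0.191 (n = 3) in follicular B-like cells. Psmb10 per Psmb7 was 1.06 ± 0.224 against 2.14 ± 0.290, and Psmb9 per Psmb6 1.39 ± 0.168 against 1.09 ± 0.0980. Of the other class I genes, 7 of 8 tested were lower with a median log2 ratio of -1.03, and of the class II genes 7 of 8 with -1.08. Among 13 regulators 6 were lower and 2 higher.

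Dividing cells and resting cells differ in RNA content, and the median depth was 13349 UMIs per cell over the 269 germinal centre B-like cells of the 3 undepleted libraries. Cells of the cluster without a UMI of the division genes Mki67 or Top2a (63 cells, median 7137 UMIs) had H2-K1 at 0.424 of the follicular level (interval 0.381 to 0.470), B2m at 0.485 (0.432 to 0.542), Tapbp at 0.519 (0.376 to 0.697), Psmb8 at 1.51 (1.34 to 1.71) and Psmb9 at 1.70 (1.39 to 2.05). Cells with such a UMI (206 cells, median 17002 UMIs) had H2-K1 at 0.437, B2m at 0.574, Tapbp at 0.470, Psmb8 at 1.84 and Psmb9 at 2.54. The 5 genes were on the same side of the follicular level in both subsets. The intervals of Psmb8, Psmb9 and B2m did not overlap between the subsets (1.76 to 1.92, 2.38 to 2.70 and 0.553 to 0.596 with such a UMI), nor did those of Tap2, at 1.39 (1.105 to 1.73) without and 0.959 (0.868 to 1.06) with one. At resolution 2 the cluster led by germinal centre genes (138 cells of these libraries) had H2-K1 at 0.394, B2m at 0.531, Psmb8 at 1.70 and Psmb9 at 2.17 of the follicular level, and the cluster led by cycling genes (140 cells) had 0.457, 0.590, 1.83 and 2.52. After each cell was thinned to 2000 UMIs, a UMI of H2-K1 was seen in 78.1% of germinal centre and 94.2% of follicular B-like cells of the isotype library, and a UMI of Psmb9 in 49.3% and 23.2%; before thinning these shares were 98.6%, 98.2%, 82.2% and 38.4%. Thinning left out 0 and 195 cells of these groups that had fewer UMIs.

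Interferon-high B cells, a cluster led by Ifit3, Usp18, Ifi47 and Isg15, had another set of members higher than follicular B-like cells: Nlrc5, Tap1, Psmb9 and Tapbp. Nlrc5 was at 21.6, 27.4 and 33.1 CPM in follicular B-like cells of the saline, isotype and anti-CTLA-4 libraries, in that order, and at 77.2, 61.6 and 90.7 in their interferon-high B cells. Tap1 was at 106, 121 and 128 against 245, 285 and 269. The 2 groups of values did not overlap for either gene, and the same held for Psmb9 (127, 134 and 132 against 226, 237 and 212) and Tapbp (171, 169.8 and 178 against 299.9, 259 and 272).

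The mean log2 ratios were 1.501 ± 0.33 (SD, n = 3) for Nlrc5, 1.18 ± 0.09 for Tap1, 0.79 ± 0.09 for Psmb9 and 0.68 ± 0.11 for Tapbp, the 4 members that passed 1.5-fold, where 2.40% of 8451 genes were higher. Psmb10 was at a mean ratio of 1.49, Psmb8 1.32, Tap2 1.23, B2m 1.22, H2-K1 1.09 and H2-D1 1.06. All 10 members were above the follicular level in 3 of 3 libraries, while the constitutive subunits had a median log2 ratio of 0.07 with 0 of 3 called and the class II genes -0.01 with 0 of 8 called. This median was 0.49 over the members and -0.06 over all genes, and no share of genes above in every library is given. The interferon gamma induced genes were higher in 8 of 8 tested and the type I interferon induced genes in 7 of 7, and genes of both lists are among the leading genes of the cluster, so these counts describe how it was found.

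Interferon-high T cells had 3 members past 1.5-fold over naive CD8 T-like cells, where 3.04% of 8248 genes were higher. Tapbp ranged from 264 to 336 CPM over 5 libraries in interferon-high T cells, lowest in the saline library, and from 165 to 177 in naive CD8 T-like cells. Its mean log2 ratio was 0.88 ± 0.16 (SD, n = 5). Tap1 had 0.77 ± 0.23, with levels from 195 to 294 against 134 to 147. Psmb10, the third, had 0.62 ± 0.20, and lost its call with either of 2 other ways of scaling the libraries. The UMIs of Psmb8 per UMI of Psmb5 were 6.86 ± 0.507 in interferon-high T and 4.29 ± 0.137 in naive CD8 T-like cells. Interferon-high T cells were named before CD4 and CD8 cells were told apart. Psmb8 was at 572 to 738 CPM in them and at 351 to 372 in naive CD4 T-like cells. Ratios to naive CD4 T-like cells were not taken, and the members called depend on the reference class.

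**Figure D2:**
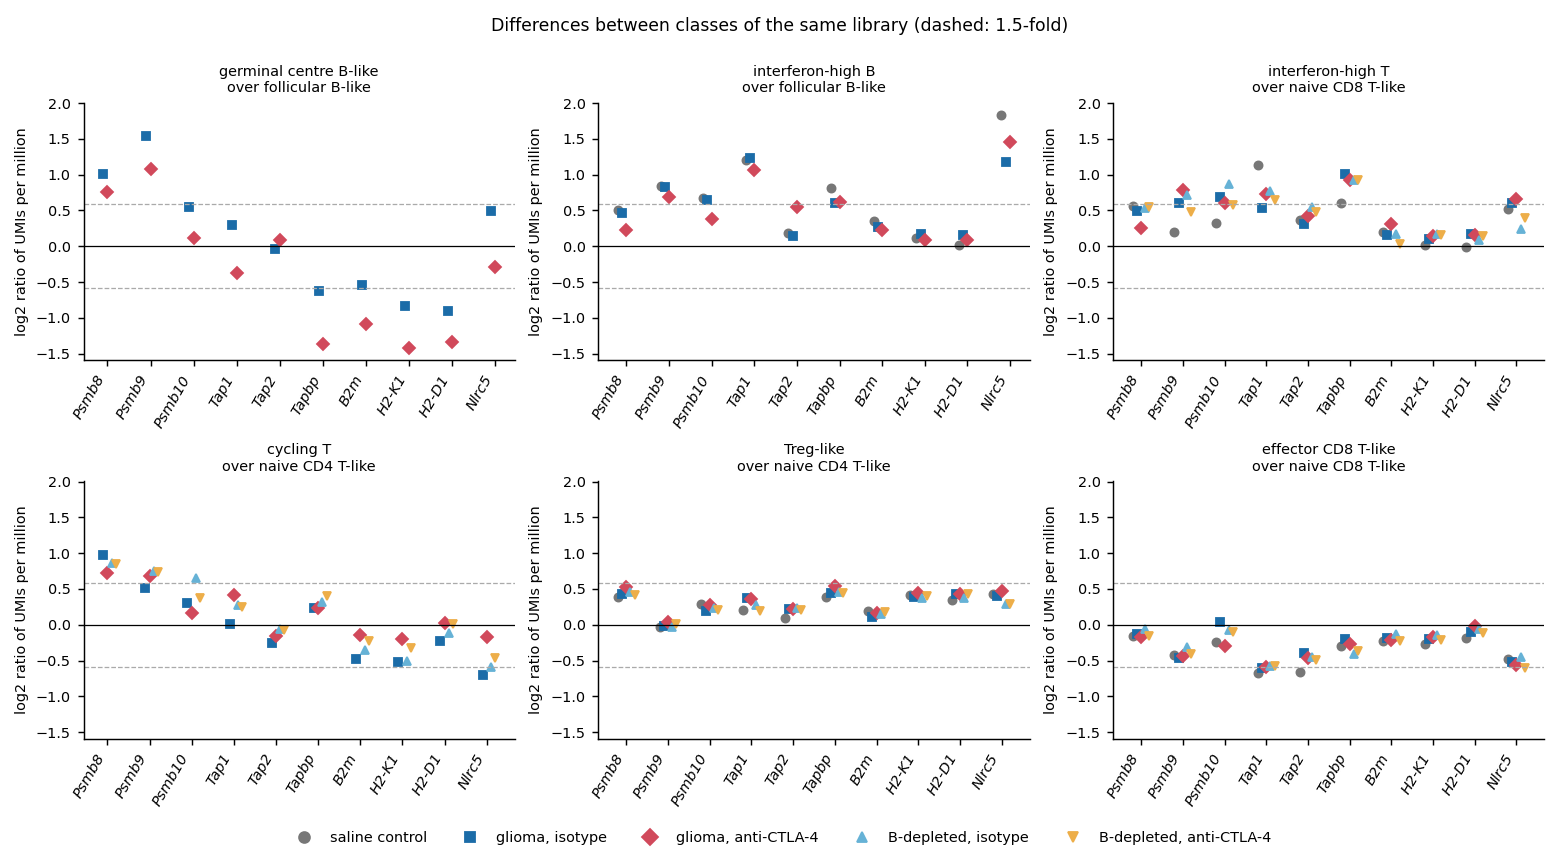
Log2 ratio of CPM between 2 classes of the same library (y axis) for the 10 genes (x axis) in 6 pairs of classes; each point is 1 library and dashed lines mark 1.5-fold. In germinal centre over follicular B-like cells Psmb8 and Psmb9 lie above the upper line and Tapbp, H2-K1 and H2-D1 below the lower one in both libraries, while in interferon-high B cells Nlrc5 and Tap1 lie highest.

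Migratory DC-like cells are named after dendritic cells that carry antigen into the node, which was not measured here. The 53 such cells of the anti-CTLA-4 library, the only undepleted one with at least 50, had all 10 members above its follicular B-like cells. Nlrc5 was at 221 against 33.1 CPM (6.70-fold), Psmb9 at 856 against 132 (6.48-fold), B2m at 6143 against 1391 (4.42-fold) and Psmb8 at 1523 against 353 (4.32-fold). Psmb10 was 3.90-fold, H2-K1 2.73-fold, Tap1 2.55-fold, Tapbp 2.49-fold, H2-D1 2.25-fold and Tap2 1.91-fold higher. By the rule of 1.5-fold 10 of 10 members were higher, beside 19.4% of 8622 genes, and this is a single library. The 10 calls were kept under both other scalings, 1 of which shifted all genes by -0.22. All 8 class II genes were lower there than in B cells, with a median log2 ratio of -1.86.

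With the libraries summed, 273 migratory DC-like cells had Psmb9 at 3.83 (3.63 to 4.04), Psmb8 at 3.80 (3.66 to 3.95) and Psmb10 at 3.73 (3.47 to 3.99) times naive CD4 T-like cells. Tapbp was at 3.16, B2m at 3.09, H2-D1 at 2.41, Nlrc5 at 2.33, Tap1 at 2.203, H2-K1 at 1.90 and Tap2 at 1.54. The clusters led by Cxcl13 and by Ccl22 both had all 10 members above naive CD4 T-like cells, with Psmb9 at 3.96 and 3.45, B2m at 3.18 and 2.84 and Tap2 at 1.55 and 1.51. The UMIs of Psmb8 per UMI of Psmb5 were highest in this class, at 12.7 ± 1.57 (SD, n = 3) against 4.36 ± 0.185 (n = 5) in naive CD4 T-like cells, and so were those of Psmb9 per Psmb6, at 5.503 ± 0.976. Psmb10 per Psmb7, at 3.08 ± 0.473, was below 5 other classes, the highest being interferon-high T cells at 6.88. The 124 plasmacytoid DC-like cells differed from this: Tapbp was at 2.78 (2.52 to 3.05), Psmb8 at 1.87, Psmb10 at 1.84 and Psmb9 at 1.68 times naive CD4 T-like cells, but Nlrc5 at 0.612 (0.472 to 0.782) and Tap2 at 0.728 (0.611 to 0.861).

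Among T cells the differences were smaller. Naive CD8 T-like cells had Psmb10 from 154 to 182 CPM, and naive CD4 T-like cells from 105 to 114.5, with no overlap over 5 libraries. Psmb10 was the 1 member past 1.5-fold, with a mean log2 ratio of 0.62 ± 0.09 (SD, n = 5), where 4.20% of 9308 genes were higher. Psmb8 (1.32-fold), Tapbp (1.31-fold) and Nlrc5 (1.31-fold) were above the CD4 level in 5 of 5 libraries without passing.

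Effector CD8 T-like cells had 9 members below naive CD8 T-like cells in 5 of 5 libraries, the exception being Psmb10. The median log2 ratio was -0.25 over the members and -0.05 over all genes, and no share of genes below in every library is given. Tap1 was at 84.0 to 97.7 CPM in effector cells and at 134 to 147 in naive ones. It was the 1 member past 1.5-fold, with a mean log2 ratio of -0.60 ± 0.04 (SD, n = 5), beside 3.24% of 8677 genes that were lower. Nlrc5 had a mean ratio of 0.698, Tap2 0.713 and Psmb9 0.756. Of the interferon gamma induced genes 6 of 10 tested were lower there.

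Treg-like cells had 9 members above naive CD4 T-like cells in 5 of 5 libraries and none past 1.5-fold, where 15.3% of 8489 genes were higher. The median log2 ratio was 0.33 over the members and 0.15 over all genes, and no share of genes above in every library is given. Tapbp (1.38-fold), Psmb8 (1.36-fold), H2-K1 (1.32-fold), H2-D1 (1.32-fold) and Nlrc5 (1.30-fold) had the highest ratios, and Psmb9 was at 0.997. Scaling moved this comparison: with the libraries scaled to UMIs outside immunoglobulin, T cell receptor, mitochondrial and ribosomal protein genes, or by median-ratio size factors, the median of all genes shifted by -0.17 or -0.21 (log2), 7 or 5 members were above in every library, and Psmb9, in the second case with B2m, was below in every library. For Tfh- and effector-like CD4 T cells all 10 were above naive CD4 T-like cells in 5 of 5 libraries, with Nlrc5 at 1.54-fold the 1 member past 1.5-fold (16.3% of 8237 genes were higher), but with the shifts of -0.20 and -0.24 under the other scalings none passed. Under both, B2m, H2-K1 and Psmb10 had mean ratios below 1, and under the second H2-D1 and Tap2 as well. Before these shifts the median log2 ratio was 0.26 over the members and 0.16 over all genes. For this count too, no share of genes above in every library is given.

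Cycling T cells, the other dividing class, had Psmb8 at 605 to 711 CPM over 4 libraries against 351 to 372 in naive CD4 T-like cells. Psmb8 was at 1.81 and Psmb9 at 1.60 times the naive CD4 level, the 2 members past 1.5-fold, beside 25.9% of 8450 genes. H2-K1 was at 0.765, B2m at 0.814 and Nlrc5 at 0.722, below in 4 of 4 libraries without passing. Under the other scalings, which shifted all genes by -0.23 and -0.20, Psmb8 alone stayed past 1.5-fold among the higher ones, and H2-K1 and Nlrc5 passed as lower. All 3 constitutive subunits were higher (median log2 ratio 1.47), and Psmb8 per Psmb5 was 2.81 ± 0.295 (SD, n = 4). Cycling T cells too were named before CD4 and CD8 cells were told apart. Psmb8 was at 460 to 497 CPM in naive CD8 T-like cells, closer to the cycling level than in naive CD4 T-like cells. Ratios of cycling T to naive CD8 T-like cells were not taken.

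NK-like cells had H2-K1 at 3437 to 4114 CPM and effector CD8 T-like cells at 2029 to 2231. H2-K1 was at 1.76 and H2-D1 at 1.92 times the effector CD8 level in 4 of 4 libraries, beside 22.6% of 5213 genes that were higher. H2-K1 lost its call under both other scalings, which shifted all genes by -0.33 and -0.35, and H2-D1 under 1 of them. B2m, Tap1, Tap2, Psmb9 and Psmb10 had mean ratios between 1.03 and 1.247 here and below 1 under both of those scalings. Further B cell states differed little from follicular B-like cells: activated B-like cells had 0 members past 1.5-fold (5.05% of 8534 genes passed in either direction), and memory-like or innate-like B cells had Nlrc5 alone, at 41.9 to 51.5 against 21.6 to 33.1 CPM, a mean ratio of 1.74 where 4.08% of 8607 genes were higher.

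The comparisons between libraries ask whether glioma, CTLA-4 blockade or loss of B cells went with a change of the pathway within a class. A gene with at least 100 UMIs over both libraries counted as higher or lower when its level was at least 25% above or at least 20% below that of the other library. Over all classes, 51 comparisons gave 493 ratios of members with enough UMIs, of which 21 were higher and 14 lower, beside 8.85% and 7.23% of gene ratios. The calls were unevenly spread over classes, which are grouped here after their values were seen. In follicular B-like cells and 5 classes of T cells (naive CD4, Tfh- and effector-like CD4, Treg-like, naive CD8 and effector CD8) 27 comparisons gave 270 ratios of members, from 0.822 to 1.27. Over these 27 comparisons together, 13% of the gene ratios passed in either direction and 7.31% as higher, against 1 of 270 for the members. That 1 was Nlrc5 in follicular B-like cells, at 27.4 CPM in the isotype library over 21.6 in saline, a ratio of 1.27 (1.08 to 1.49), where 4.24% of 9426 genes were higher. Nlrc5 was at 33.1 with anti-CTLA-4, the highest of the 3. The comparisons share libraries and are not independent. Genes with few UMIs vary more by counting, and the shares of gene ratios include all genes with at least 100 UMIs. No share over genes with UMI counts like those of the members was taken.

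The spread of a member over the libraries was small in these classes. In follicular B-like cells the highest of 3 libraries over the lowest was 1.05 at the median of the members, and in naive CD4 and naive CD8 T-like cells, over 5 libraries, 1.11 and 1.12. Nlrc5 had the widest range in each of these, 1.54, 1.29 and 1.21. In naive CD4 T-like cells it was at 75.6 in saline, 71.2 with isotype, 80.8 with anti-CTLA-4, and after depletion at 83.4 with isotype and 92.1 with anti-CTLA-4, the 2 highest. In the same order B2m there was at 1935, 2034, 2161, 1937 and 1921, highest in the anti-CTLA-4 library. H2-K1 was at 2586, 2333, 2388, 2418 and 2288, highest in the saline library. Class II genes in the same T cells, whose levels of Cd79a also differed between libraries (above), moved more: in naive CD4 T-like cells 5 of 7 were higher in anti-CTLA-4 over isotype, with a median log2 ratio of 0.64, and in depleted anti-CTLA-4 over anti-CTLA-4 their median was -1.59. The part of RNA from B cells was not tested.

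**Figure D3:**
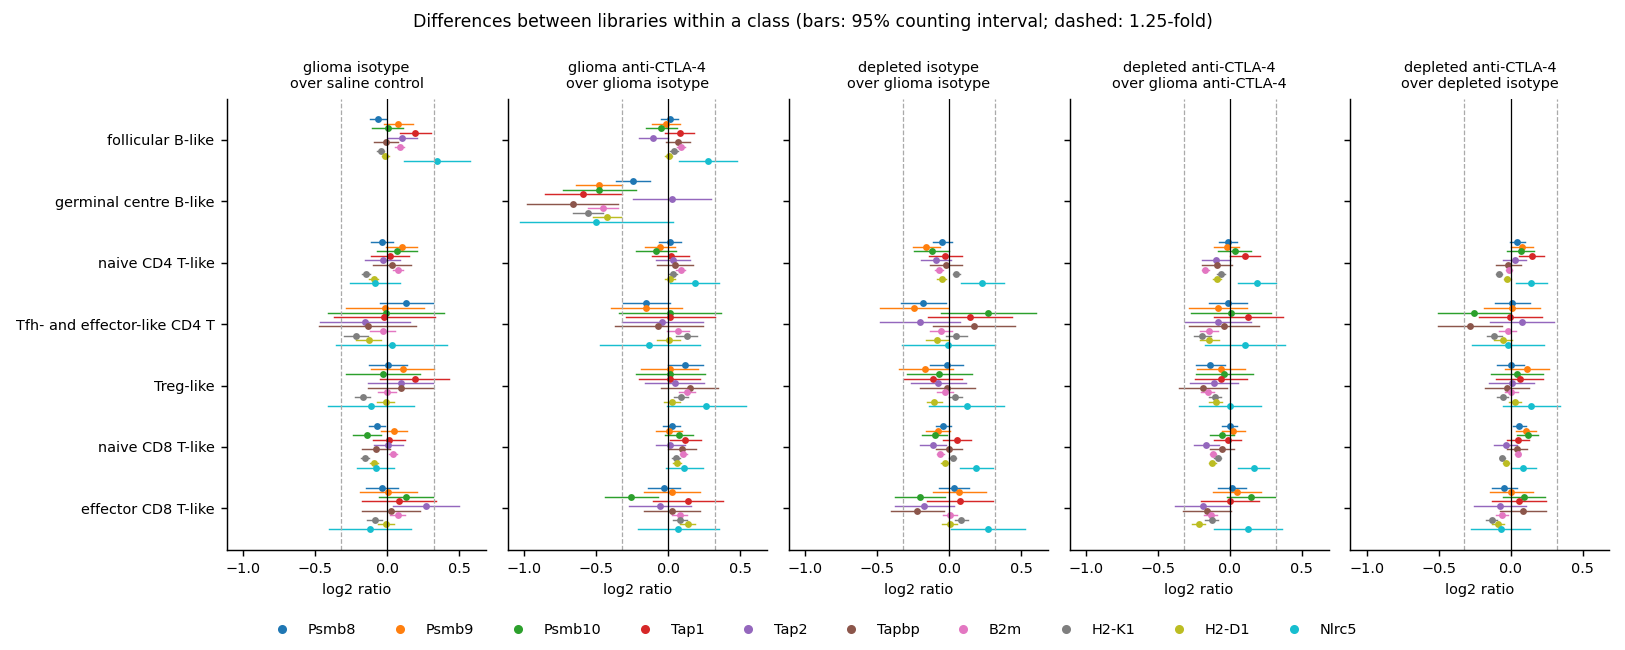
Log2 ratio between libraries (x axis) of the 10 genes (colours) within 7 classes (y axis) in 5 comparisons (panels); bars are 95% counting intervals, dashed lines mark 25% above and 20% below, and empty rows have fewer than 50 cells in a library. The points lie between the dashed lines in all classes except Nlrc5 in follicular B-like cells (1.27) and 8 genes in germinal centre B-like cells.

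In the other classes, which include activated B-like cells, 223 ratios of members had at least 100 UMIs, and 20 were higher and 14 lower, between 0.631 and 1.74. Over the same 24 comparisons 13.3% of gene ratios were higher and 11.7% lower, and the members' shares were below these. Here too the genes were not matched to the members for UMI counts. The largest group of calls was in B cell cluster 11, described next. In cycling T cells (60 against 57 cells) anti-CTLA-4 over isotype had B2m at 1.34 (1.26 to 1.42), H2-K1 at 1.27 (1.20 to 1.35), Tap1 at 1.34 (1.08 to 1.66) and Nlrc5 at 1.64 (1.15 to 2.35), 4 members higher beside 26.6% of 3942 genes. Cd79a was at 118.6 CPM in cycling T cells with isotype and at 94.1 with anti-CTLA-4, and at 10.9 and 0.511 in the depleted libraries, and the part of RNA from B cells was not tested. After depletion the same antibody contrast in cycling T cells gave 0 members called, beside 17.9% of genes in either direction. In migratory DC-like cells depleted anti-CTLA-4 over depleted isotype (87 against 64 cells) had all 3 immunoproteasome subunits higher, Psmb8 at 1551 against 1149 CPM (1.35, interval 1.22 to 1.498), Psmb9 at 756 against 562 (1.34, 1.16 to 1.56) and Psmb10 at 508 against 368 (1.38, 1.15 to 1.66), beside 13.6% of 1749 genes. The other 7 members were not called there. Cd3e was at 74.8 CPM in these cells with isotype and 30.8 with anti-CTLA-4, against 758 and 773.5 in T cells of the same libraries, and its part was not tested.

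The remaining calls were spread over several comparisons. Isotype over saline had Tap1 higher in activated B-like cells (1.47, 1.21 to 1.80, beside 8.27% of genes) and with Nlrc5 in the unnamed B cells (1.53 and 1.74, beside 7.38%). In interferon-high T cells Tap1 was lower at 0.663 (0.497 to 0.880, beside 13.5%) and Psmb9 and Tapbp higher at 1.37 and 1.26 (beside 11.2%). NK-like cells, with 53 to 66 cells in a library, had B2m higher in depleted isotype over isotype (1.27, 1.15 to 1.41, beside 11.5%) and lower in depleted anti-CTLA-4 over depleted isotype (0.790, 0.721 to 0.866, beside 11.5%).

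B cell cluster 11, described above as germinal centre B-like with cycling cells, held 73 cells with isotype and 170 with anti-CTLA-4, and 8 of 10 members were lower with anti-CTLA-4. H2-K1 was at 962 (912 to 1013) CPM with isotype and at 654 (623 to 687) with anti-CTLA-4. B2m was at 899.5 (852 to 949) and 658 (626 to 691), and H2-D1 at 1062 (1010.2 to 1116) and 789 (755 to 825). Tapbp was at 109.9 (93.7 to 128) and 69.4 (59.3 to 80.6). For these 4 genes the counting intervals of the 2 libraries did not overlap.

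As ratios, Tapbp was at 0.631 (0.506 to 0.787), Tap1 at 0.664 (0.551 to 0.8002), H2-K1 at 0.680 (0.633 to 0.731), Nlrc5 at 0.707, Psmb9 at 0.716 (0.640 to 0.802), Psmb10 at 0.717 (0.602 to 0.855), B2m at 0.731 (0.680 to 0.787) and H2-D1 at 0.743 (0.695 to 0.795). The interval of Nlrc5, 0.489 to 1.02, reached past 1. Psmb8 at 0.844 and Tap2 at 1.02 were not called. By the same rule 10.8% of 5506 genes were lower and 20.3% higher in this cluster, and the median log2 ratio was -0.48 over the members and 0.07 over all genes. At a fold of 1.5 only Tapbp and Tap1 passed. Of the listed genes, the proteasome activator subunit Psme2 (0.751), the class I genes H2-Q6 (0.702) and H2-Q7 (0.687), and the regulators Irf1 (0.650) and Socs1 (0.625) were lower, the constitutive subunits were not called, and the class II genes H2-Oa (1.28) and H2-Ob (1.56), subunits of the class II regulator DO, were higher.

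In the other 3 libraries the cluster is smaller, with 26, 22 and 40 cells. H2-K1 was at 654 (569 to 747) in the saline library, 1218 (1100.2 to 1345) in the depleted isotype and 1089 (993 to 1191) in the depleted anti-CTLA-4 library. B2m was at 641, 962 and 845. The saline level of both genes was near that of the anti-CTLA-4 library, and the depleted libraries lay highest for H2-K1. For B2m the isotype library, at 899.5, lay between the depleted ones. Psmb9 was at 322 in saline, at 388 and 278 with isotype and anti-CTLA-4, and after depletion at 333 and 228, lowest in the 2 libraries given anti-CTLA-4.

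Other measures of the cluster moved between these libraries too. From isotype to anti-CTLA-4 the median depth was 17810.0 and 12473 UMIs per cell, the summed germinal centre markers 1585 and 2688 CPM, cells with a UMI of Mki67 or Top2a 83.6% and 74.7%, and cells with an IgG receptor 37.5% (24 to 52.6) of 48 and 54.7% (45.2 to 63.9) of 117 cells whose receptor was known. The median mitochondrial share of UMIs was 1.185% with isotype and 1.91% with anti-CTLA-4. A UMI of a Cd3 gene was in 6.85% and 5.88% of cells. Within cells with an IgG receptor (64 against 18) the median log2 ratio of the members was -0.44 with 6 of 9 lower, and within cells with an IgM or IgD receptor (53 against 30) it was -0.45 with 6 of 9 lower. Without cells that had a Cd3 UMI it was -0.50. With a UMI of Mki67 or Top2a (127 against 61 cells) it was -0.50 with 8 of 10 lower, and without one (43 against 12 cells) it was -0.05 with 2 of 5 lower. At resolution 2 it was -0.42 in the cluster led by germinal centre genes (88 against 32 cells), with 5 of 9 lower, and -0.43 in the one led by cycling genes (83 against 47 cells), with 8 of 10 lower. No share of all genes called was taken within these subsets, so the counts of members there stand without a background. The part of depth, of the mitochondrial share and of the markers in the difference was not tested.

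**Figure D4:**
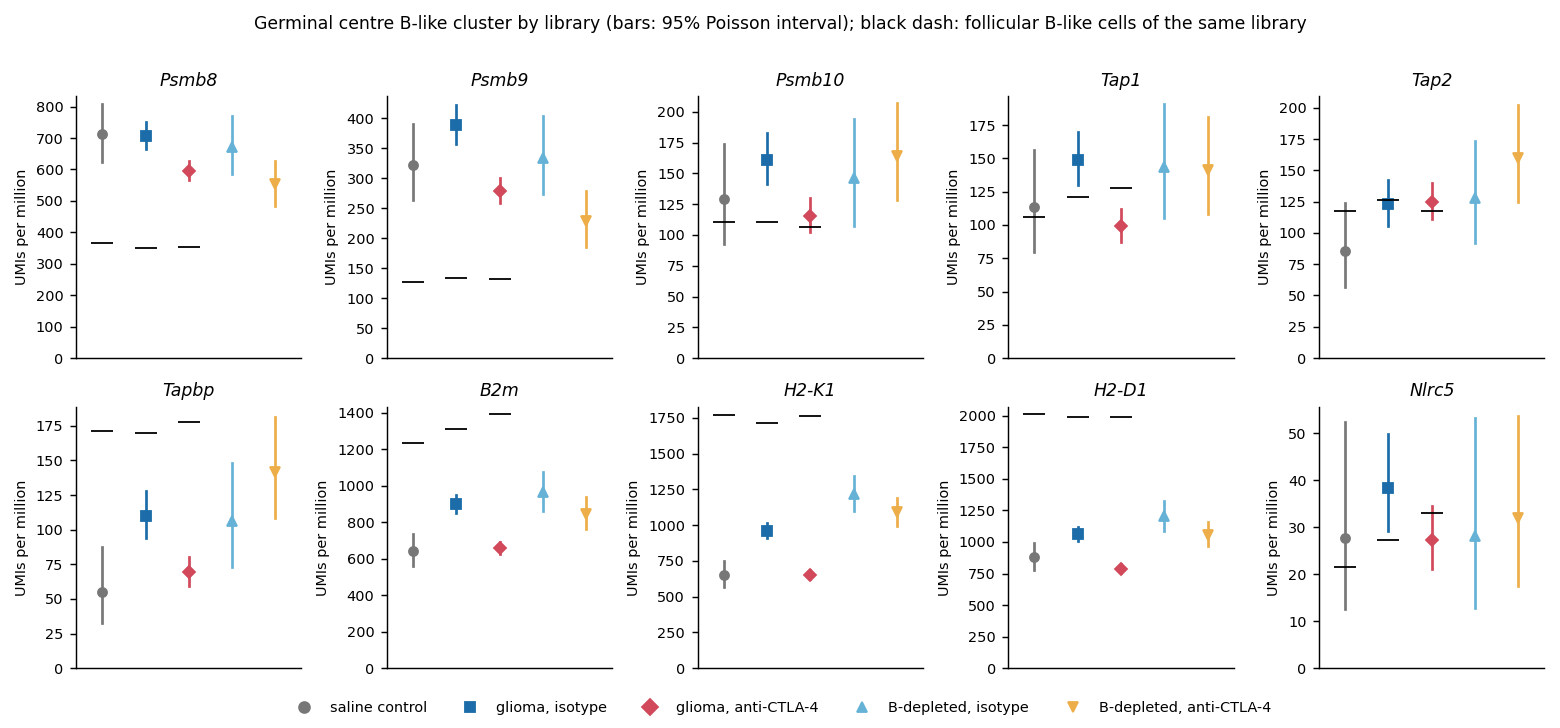
Level of each gene (y axis, CPM) in B cell cluster 11 of the 5 libraries (colours), with 95% Poisson intervals as bars, and in follicular B-like cells of the same library (black dash, undepleted libraries only). Psmb8 and Psmb9 lie above the dashes and B2m, H2-K1, H2-D1 and Tapbp below them in all 3 undepleted libraries, and the anti-CTLA-4 level of H2-K1 and B2m lies near that of the saline library.

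The receptor libraries gave the heavy chain of B cells, where one was found, from other libraries than the expression values, and so grouped the cells without the members. Class switch to IgG marks B cells that have responded to antigen. Over the B lineage outside plasma cells, 107 IgG cells had H2-K1 at 674 CPM against 1723 in 12206 IgM or IgD cells, and Psmb9 at 312 against 143. Of these IgG cells 92 were in cluster 11, and 68.8% of all genes passed in either direction in this comparison. Within cluster 11, 92 IgG cells and 90 IgM or IgD cells could be compared directly. These were 17 of 26 cells of the cluster in the saline, 48 of 73 in the isotype and 117 of 170 in the anti-CTLA-4 library. The rest of the cluster is not in this comparison.

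There the class I molecule genes were lower in IgG cells. H2-K1 was at 576 against 999.8 (0.576, interval 0.531 to 0.624), B2m at 601 against 981 (0.613, 0.566 to 0.664) and H2-D1 at 692 against 1123 (0.617, 0.572 to 0.664). Tap1 was at 0.623 (0.504 to 0.766), Nlrc5, the class I coactivator, at 0.504 (0.327 to 0.762) with 34 and 79 UMIs, and Tapbp at 0.763 (0.599 to 0.969). These 6 members were lower, beside 12.7% of 5015 genes. Psmb8 at 1.02 (0.934 to 1.10), Psmb9 at 0.929 (0.825 to 1.05), Psmb10 at 0.908 (0.750 to 1.10) and Tap2 at 0.869 (0.707 to 1.07) were not called. Median depth was 14374 UMIs in the IgG and 19000.0 in the IgM or IgD cells, and its part was not tested.

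Taken by library, the cells were few, in the isotype library below the 50 asked of a class. In the isotype library (18 against 30 cells) H2-K1 was at 0.604, B2m at 0.677, H2-D1 at 0.570 and Tap1 at 0.650. In the anti-CTLA-4 library (64 against 53 cells) they were at 0.589, 0.579, 0.658 and 0.635. Psmb8 was at 0.994 and 1.07. Tapbp was at 0.722 (0.496 to 1.04) and 0.894 (0.628 to 1.27), with both intervals including 1, and Tap2 lay on both sides of 1, at 1.08 and 0.774. Against follicular B-like cells, both receptor groups had less H2-K1, at 0.330 (0.308 to 0.352) with IgG and 0.572 (0.546 to 0.599) with IgM or IgD, and both had more Psmb9, at 2.47 and 2.66. Outside cluster 11 only 15 IgG cells were found, with H2-K1 at 1.01 (0.885 to 1.14), B2m at 1.29 (1.14 to 1.47) and H2-D1 at 0.819 (0.715 to 0.934) of the level in 12116 IgM or IgD cells.

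**Figure D5:**
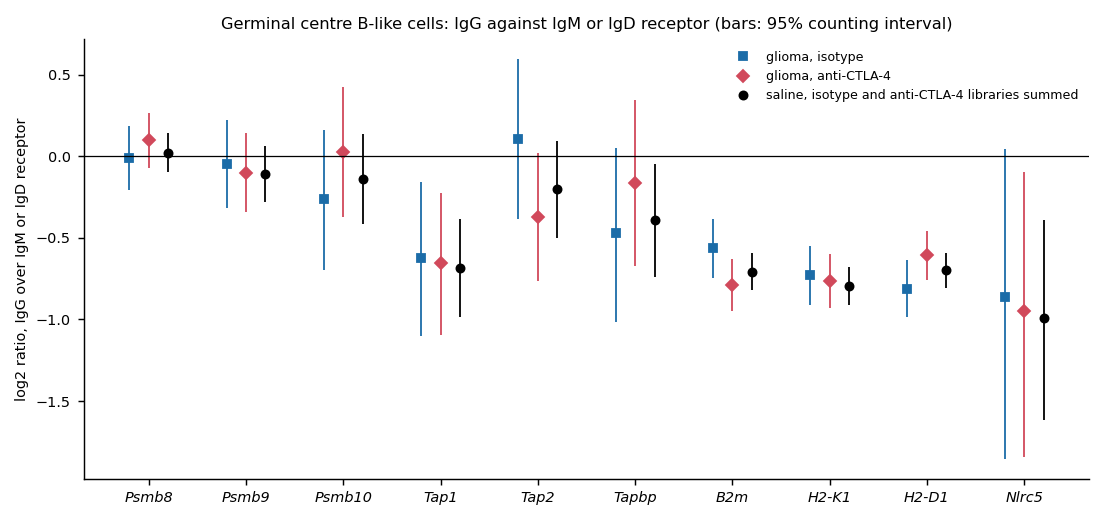
Log2 ratio of cells with an IgG receptor over cells with an IgM or IgD receptor (y axis) within germinal centre B-like cells for the 10 genes (x axis), with 95% counting intervals as bars. B2m, H2-K1, H2-D1, Tap1 and Nlrc5 lie below 0 in the isotype library, the anti-CTLA-4 library and the sum of 3 libraries, and Psmb8 and Psmb9 lie near it.

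B cells that remained after anti-CD20 were few, and were summed over both depleted libraries. In 35 follicular B-like cells against 7269 of the isotype and anti-CTLA-4 libraries, H2-K1 was at 1.07 (0.963 to 1.18), B2m at 1.14 (1.02 to 1.27), Tap1 at 1.435 (1.014 to 1.974) and Tapbp at 1.41 (1.05 to 1.85). In cluster 11, with 62 against 243 cells, H2-K1 was at 1.49 (1.38 to 1.60), Tapbp at 1.495 (1.18 to 1.88), H2-D1 at 1.26 (1.16 to 1.35) and B2m at 1.20 (1.10 to 1.30), while Psmb9 was at 0.853 (0.733 to 0.989). In 37 against 470 memory-like or innate-like B cells H2-K1 was at 1.42 (1.31 to 1.54), H2-D1 at 1.246 (1.144 to 1.356) and Nlrc5 at 1.958 (1.23 to 2.998). B2m there was at 1.012 (0.917 to 1.115) and Tapbp at 0.7685 (0.527 to 1.087). No share over all genes is given for the ratios of these remaining cells. Plasma cells were summed as well (72 cells of 3 libraries), because 45.3% of their UMIs are immunoglobulin or T cell receptor transcripts. Outside those transcripts B2m was at 2.64 (2.56 to 2.73), Psmb9 at 1.98 (1.76 to 2.22), Psmb8 at 1.82 (1.69 to 1.95) and H2-K1 at 1.39 (1.34 to 1.44) times follicular B-like cells; over all UMIs these were 1.46, 1.10, 1.01 and 0.769, so the direction for H2-K1 depends on the scaling.

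Across the 15 classes, with levels averaged over libraries as log2(CPM + 1), the members were alike to different degrees. Psmb8 and Psmb9 had a Pearson correlation of 0.956, H2-K1 and H2-D1 of 0.930 and B2m and H2-K1 of 0.911, while H2-K1 and Psmb9 had 0.258, the lowest of 45. Among 5409 genes the most like each member were Psmb9 for Psmb8, Psmb8 for Psmb9, H2-Q4 for H2-K1 (0.958), H2-K1 for H2-D1, Rap2b for B2m (0.947), Phf11b for Tap1 (0.910), Gbp2 for Tap2 (0.865), Gbp5 for Tapbp (0.866), Epsti1 for Psmb10 (0.930) and Gbp2 for Nlrc5 (0.964). The classes share libraries, differ in depth and include the migratory DC-like cells, where all members are highest, so these values describe the pattern only.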

How the data were processed

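The files used hold UMI counts of genes per cell barcode in 5 single-cell libraries, 1 per group, and contigs of B cell receptors. The deposited counts are whole numbers and not normalized. Per the file headers they come from Cell Ranger 7.0.1, and the submitters' processing notes name bcl2fastq 2.20.0 and mm10. The filtered matrices held 9846, 9641, 11791, 9014 and 9107 barcodes and 54715065, 55770528, 63497466, 61019425 and 62150813 UMIs, from saline, isotype and anti-CTLA-4 to the depleted pair in the same treatment order.

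Barcodes with at least 500 genes and at most 10% mitochondrial UMIs were kept. The highest Scrublet scores were removed as likely doublets at a rate of 0.8% per 1000 barcodes (776, 744, 1112, 650 and 663 barcodes), since the automatic threshold marked 0 in both depleted libraries. This left 45135 cells. Cells were clustered on 2000 variable genes, 30 principal components and 15 neighbours (Leiden resolution 1), with 29 class I genes, the members among them, left out. Clusters were named from marker lists by score thresholds, chosen with the clusters already in view.

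UMIs were summed per class and library and scaled to CPM (UMIs per 1000000). Cells are not replicates and each group is 1 library, so no test between groups was run. Ratios carry exact conditional binomial intervals and levels exact Poisson intervals. A class needed 50 cells in a library and a gene 100 UMIs over both sides. Shares of cells with a UMI were taken after thinning to 2000 UMIs. The ratio step was tested on simulated data. The simulated UMIs held counting error only, as the intervals assume, and no spread between cells or mice, so that spread was not tested. The members and lists were chosen with earlier results of these data known. All 10 members are named. Of each other list, at most the 2 highest and 2 lowest ratios with at least 100 UMIs are named in a comparison, and for likeness the nearest gene. Mx1 was not analysed here. Some genes of the lists are not reported here. Alternatives covered scaling, doublets, mitochondrial share, resolution, clustering genes, weighting of cells, call threshold, cells with UMIs of the other lineage, and each library left out in turn.

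Tools were python 3.11.15, scanpy 1.11.5, scipy 1.17.1, numpy 2.4.6, pandas 2.3.3, leidenalg 0.10.2, igraph 0.11.9, scikit-learn 1.9.0 and matplotlib 3.10.9.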

Additional observations from a re-analysis of the deposited data

Results flagged for a closer look

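Tapbp, the chaperone tapasin, moved in opposite directions with anti-CTLA-4 in NK-like cells. Its level in the anti-CTLA-4 library was 1.33 times that of the isotype library (0.921 to 1.92), and after B cell depletion 0.739 times that of the depleted isotype library (0.537 to 1.02). Both intervals include a ratio of 1, each group is 1 library, and the difference between the ratios was not tested.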

How the results depend on the processing

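With 1 library per group, no alternative bears on the spread between mice, and few UMIs limit Nlrc5, Tap2 and the smaller classes. No paired analysis was possible because each group has 1 library. Leaving out cells of clusters held by 1 library, subsets of germinal centre cells and summed small classes were alternatives chosen after seeing the data.

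Between libraries, the median log2 ratio of the 10 members stayed between the medians of their interval bounds in 282 of 284 alternatives. The exceptions were anti-CTLA-4 over isotype in follicular B-like cells (0.025, and -0.029 with size factors) and in germinal centre B-like cells (-0.48, and -0.047 without a UMI of Mki67 or Top2a). All 280 ratios of single members without the cell with most UMIs stayed within their intervals. At a fold of 1.5, the members called were 0 in follicular B-like cells for isotype over saline and 2 in germinal centre B-like cells for anti-CTLA-4 over isotype.

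Between classes, 149 of 175 alternatives moved the median log2 ratio by no more than its SD over libraries and 26 by more. For migratory DC-like over follicular B-like cells, with 1 library, a width from the counting intervals took the place of the SD. As reported, the medians were 0.14 for naive CD8 over naive CD4, 0.33 for Treg-like, 0.26 for Tfh- and effector-like and 0.082 for cycling T cells over naive CD4, 0.13 for NK-like over effector CD8, 0.0051 for activated, 0.015 for memory-like or innate-like and 0.49 for interferon-high B and 1.71 for migratory DC-like cells over follicular B, -0.23 for follicular B over naive CD4 and -0.25 for all B over all T. Scaling to UMIs outside immunoglobulin, T cell receptor, mitochondrial and ribosomal protein genes gave 0.19 for naive CD8 over naive CD4, 0.17 for Treg-like, 0.061 for Tfh- and effector-like, -0.15 for cycling T, -0.20 for NK-like, 0.12 for memory-like or innate-like B, 1.49 for migratory DC-like cells, -0.41 for follicular B over naive CD4 and -0.33 for all B over all T. Size factors gave 0.21 for naive CD8 over naive CD4, 0.12 for Treg-like, 0.020 for Tfh- and effector-like, -0.12 for cycling T, -0.22 for NK-like, 0.070 for activated B-like and 0.070 for memory-like or innate-like B. Activated B-like medians were -0.13 with no doublet removal, -0.10 at 5% mitochondrial UMIs, -0.045 at Leiden resolution 2 and -0.12 with class I genes in the clustering. Memory-like or innate-like B medians were -0.012 with no doublet removal, -0.023 at 5% mitochondrial UMIs and -0.046 at resolution 2, and interferon-high B was 0.41 at resolution 2. Leaving out each library gave -0.020 to 0.024 for memory-like or innate-like B and 0.44 to 0.58 for interferon-high B. Ratios by receptor isotype moved past their interval in 7 of 11 results when taken within germinal centre B-like cells, and Psmb9 went from 2.19 over all B lineage cells to 0.929 (0.825 to 1.05, an interval that includes 1). Shares of cells with a UMI moved in all 80 alternatives (thinning to 1000 UMIs, or none), and the percent of all genes called moved by over 1.5 times in 26 of 28 when genes with at least 20 UMIs were counted. The cause was not tested for these results.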

Other observations

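A cluster of 57 cells, spread over the 5 libraries and led by Ifi205, Cxcl9, Ppt1, Naaa and Xcr1, was too small to compare between libraries. With the libraries summed, the immunoproteasome subunit Psmb9 was at 3.58 (3.30 to 3.88) times naive CD4 T-like cells, Psmb8 at 2.79, Tap1 at 2.07 and Tapbp at 1.84. The heavy chain H2-K1 was at 0.4999 (0.472 to 0.529), B2m at 0.852 and H2-D1 at 0.898, so in these cells the subunits and the transporter were above, and the heavy chains and B2m below, naive CD4 T-like cells. Nlrc5, the class I transactivator, was at 0.824 (0.639 to 1.05), an interval that includes 1.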
